A study of Mus musculus with 16 samples.

Results

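The genotype effect that male and female mice had in common was examined in brown adipose tissue (BAT), as the mean difference between *Gdf15*-deleted and control mice over both sexes, with sex as a covariate. Of 49066 genes, 12210 had a mean of at least 1 TPM (transcripts per 1000000) and were tested. Of these, 336 differed between the genotypes (2.75% of the genes tested) at a Benjamini-Hochberg adjusted p under 0.05 in limma, and 2842 had an unadjusted p under 0.05. All 336 had the same sign in males and in females, and they are the genes described here. The pooled estimate is the mean of the 2 sexes, so this agreement in sign follows in part from the way the genes were selected. With each sex fitted alone in limma at the same threshold, 1 gene was called in males and 0 in females.

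BAT was sequenced from 4 mice of each sex and genotype, 16 libraries in all. Every mouse was of the C57BL6/J strain and carried *Gdf15* fl/fl, with loxP sites at both *Gdf15* alleles. GDF15 BKO (KO) mice also carried Tg(Ucp1-cre)1Evdr, in which the *Ucp1* promoter drives Cre recombinase, and the WT controls were *Gdf15* fl/fl littermates without Cre. All mice were fed a high-fat diet (HFD) from 6 weeks of age for 12 weeks and were 18 weeks old at collection. Cre is produced in thermogenic adipocytes, so the vascular, stromal and immune cells of the tissue kept *Gdf15*, and the Cre transgene itself is present in KO mice only. The effects of the deletion and of the transgene cannot be told apart in this design.

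Brown adipocytes oxidise fatty acids and glucose and release the energy as heat through uncoupling protein 1 (UCP1) in the inner mitochondrial membrane. The adipocytes lie in a dense capillary bed, held by a matrix of collagens and basement membrane proteins, together with fibroblast-like progenitors, pericytes and macrophages. *Gdf15* encodes a secreted stress-induced member of the TGF-beta superfamily, whose known receptor, GFRAL with the co-receptor RET, is described mainly in neurons of the hindbrain.

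*Gdf15* was listed at low TPM in all groups and was lower in KO mice. In males it stood at 0.368, 0.69, 1.55 and 3.81 TPM in WT and at 0.0915, 0.0801, 0.255 and 0.272 in KO. In females the WT values were 0.0622, 0.311, 0.17 and 0.29 and the KO values were 0, 0, 0.0794 and 0. Within males no KO library reached the lowest WT library, whereas in females 1 KO library overlapped the WT range. The mean difference over both sexes was -0.91 on the log2(TPM + 0.5) scale, -1.38 in males and -0.43 in females (exact permutation within each sex, two-sided p = 0.000816). The mean of *Gdf15* over the 16 libraries, 0.502 TPM, lay under the minimum for the test across genes. *Gfral* was listed at 0 in all 16 libraries and *Ret* at 0.214 to 0.63 TPM.

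A transcript without a name in the annotation used here, ENSMUST99999999995, separated the genotypes completely. Its identifier lies outside the Ensembl series, and the sources used here do not say what sequence it stands for. This transcript was listed at 0 in 7 of the 8 WT libraries and at 0.0427 TPM in the other, the first female WT library. The KO libraries held 36.3, 23.9, 12.1 and 21.2 TPM in males and 77.4, 20.2, 68.7 and 78.8 TPM in females. ENSMUST99999999996, also without a name and outside that series, stood at 0.329 to 3.29 TPM in male WT and 8.35 to 41.7 TPM in male KO. In females it stayed at or below 1.16 TPM in both genotypes, which overlapped. By the first of these transcripts no library lay in the range of the other genotype.

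**Figure D1:**
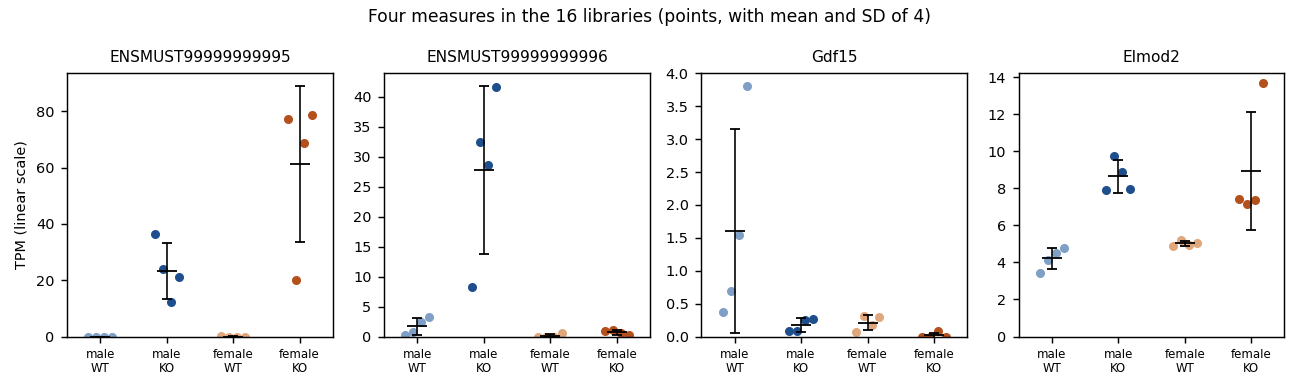
TPM (linear vertical axes) of ENSMUST99999999995, ENSMUST99999999996, *Gdf15* and *Elmod2* in the 4 groups. Points are libraries, and horizontal lines with bars are means and SD of 4; for ENSMUST99999999995 all WT points lie at or below 0.0427 and all KO points at or above 12.1.

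The tissue label held in every group. *Ucp1* stood at 2350 to 4420 TPM over the 16 libraries and did not pass the test, with a difference of 0.14 (95% interval -0.12 to 0.39, limma adjusted p = 0.503). Summed TPM of 24 brown adipocyte genes ran from 10300 to 14800 in male WT and 11600 to 12500 in male KO, and from 7820 to 12600 in female WT and 9080 to 14200 in female KO. The fourth female WT library stood apart: a single transcript without a name, ENSMUST00000240377, took 16.5% of its TPM, against 266 to 527 TPM in each of the other libraries. Mitochondrially encoded transcripts accounted for 34.5 to 59.8% of a library, and 58140 to 65746 transcripts were listed above 0. TPM hold no read numbers, so sequencing depth could not be weighed.

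Among the 336 called, KO mice had higher levels of 300 (2.46% of the genes tested) and lower levels of 36 (0.295%). The differences of the higher genes ran from 0.25 to 1.67 on the log2 scale, with a median of 0.57. Those of the lower genes ran from -4.23 to -0.32, with a median of -0.62; the lowest was that of *mt-Tf*, a mitochondrial tRNA gene of 68 bases that is named after its value was seen. This split moved with the scaling of the values. TPM are shares of a fixed sum, and the median difference of all genes was 0.13 (0.16 in males, 0.10 in females). After rescaling by median-of-ratios factors, which brought that median to 0.00, 168 genes were higher (1.38%) and 171 lower (1.4%), so 49.6% of the called genes were higher, against 89.3% as deposited. Other settings that brought the median of all genes near 0 left more of the calls on the higher side: 70.8% with mitochondrial transcripts left out (289 higher, 119 lower), 69.4% after removal of a trend on GC content and length (75 higher, 33 lower) and 58% with the same factors and without the fourth female WT library (240 higher, 174 lower). Both scalings called 198 genes in common, 162 higher and 36 lower, and all 300 higher and 36 lower genes kept their sign.

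Across all 12210 genes the effects in the 2 sexes had little in common. Pearson's r between the male and female differences was 0.02 and Spearman's rho 0.05, given as a description across genes, which are not independent. The sign was shared by 58.7% of the genes, 6150 of them higher and 1022 lower in both sexes, and by 50.3% after rescaling. KO and WT values did not overlap within either sex, in the same direction, for 107 genes (0.876%), and 98 of these were among the 336. The interaction of genotype and sex passed the adjusted threshold for 0 genes in limma (lowest adjusted p = 0.216), although 1735 had an unadjusted p under 0.05. Among the 336 genes, 217 differed by under 0.25 between the sexes and 29 had an unadjusted interaction p under 0.05. The pooled fit counts a sex difference in the effect as residual spread, so it favours genes with like effects in both sexes. These 2 counts therefore follow in part from the selection and are a description.

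**Figure D2:**
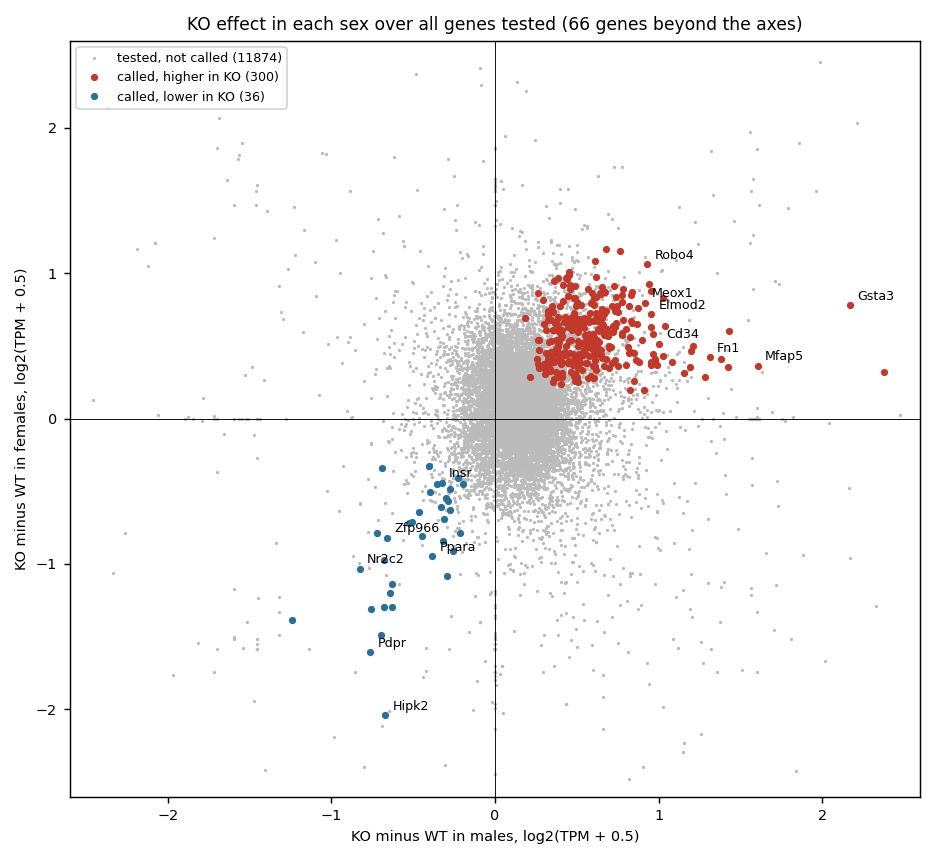
KO minus WT difference on the log2(TPM + 0.5) scale in males (horizontal axis) and in females (vertical axis) for the 12210 genes tested, with 66 genes beyond the axes. The 300 genes called higher (red) lie in the upper right and the 36 called lower (blue) in the lower left, and the uncalled genes are grey. Over all 12210 genes tested, called and uncalled, there was little relation between the sexes (Pearson's r of 0.02).

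Libraries also carried 1 of 4 prefixes in their names (5, 8b, 9 and 10), whose meaning the sources used here do not give, and which were spread unevenly over the groups. With the prefix as a further covariate 9 genes were called, 4 higher and 5 lower, 8 of which were among the 336. KO and WT could be compared within a prefix in 3 strata. Prefix 9 held 2 WT and 3 KO male libraries, prefix 10 held 1 WT and 1 KO female library, and prefix 8b held 3 WT and 1 KO female libraries. In these strata 327 of the 336 genes kept one sign, 291 of the 300 higher and 36 of the 36 lower, against 36.5% of all genes tested. The same libraries had selected the genes, so this is a description. The count of called genes fell to 36 without the first female KO library and rose to 1057 without the second male WT library. Without the fourth female WT library, 233 genes were called, 206 higher and 27 lower.

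The genes with the strongest evidence were examined next, the 14 higher and 14 lower genes with the smallest p, predicted genes and pseudogenes aside. KO and WT values did not overlap within either sex for 24 of the 28, and for 15 of them not over all 16 libraries either. Of all 12210 genes tested, 107 were apart within each sex and 42 over all 16 libraries. The 28 were selected by p in the same libraries, so their separation follows in part from that selection. *Elmod2*, *Meox1*, *Pdpr* and *Nr2c2* were called under all alternative settings that tested them, the prefix included. Of the 28, 5 were called with the prefix as covariate (these 4 and *Adm*) and 18 under all other alternatives. In all 28 the sign was the same in each of the 3 strata of sex and prefix, but the same libraries had selected the 28, so this too is a description.

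*Elmod2*, which encodes a GTPase-activating protein for the small GTPase ARL2, was higher in KO mice of both sexes. In males it stood at 3.45, 4.15, 4.52 and 4.78 TPM in WT and at 7.93, 9.77, 8.87 and 7.99 in KO. Female WT libraries held 4.88, 5.23, 4.95 and 5.04 TPM and female KO libraries 7.44, 7.18, 7.39 and 13.7. Every KO library lay above every WT library, and the fourth female KO library was far above the others. The difference was 0.84 ± 0.12 (SE; 95% interval 0.59 to 1.09; limma adjusted p = 0.0059), 0.96 in males and 0.72 in females. *Elmod2* is the gene that follows *Ucp1* on chromosome 8 in the GENCODE annotation, and the *Ucp1* promoter drives the transgene carried by the KO mice. Whether the transgene has a part in this difference was not tested.

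Within 500 kb of *Ucp1*, *Elmod2* and *Tbc1d9*, the genes on either side of it, were called. *Tbc1d9*, a gene of the TBC1 domain family that acts on Rab GTPases, averaged 2.13 ± 0.454 TPM in male WT and 4.04 ± 0.564 in male KO, and 2.39 ± 0.584 and 3.23 ± 0.767 in females (SD, n = 4). Its male groups did not overlap and its female groups did, and its difference of 0.58 (adjusted p = 0.0353 in limma) missed the threshold after rescaling (adjusted p = 0.0871). Other tested genes in the window, *Rnf150*, *Scoc*, *Ndufb7*, *Tecr*, *Dnajb1*, *Gipc1*, *Ptger1*, *Ddx39*, *Adgre5* and *Mir1668*, were not called. Their differences ran from -0.64 for *Mir1668*, listed above 0 in a single library, to 0.46 for *Dnajb1*, and the nearest to the threshold was *Adgre5* at 0.35 (adjusted p = 0.0628). On chromosome 8 as a whole, which carries both *Ucp1* and *Gdf15*, 22 of 659 genes were called (3.34%), near the 2.75% over all genes, and the shares on chromosomes 6 and 11 were 4.46% and 3.94%.

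*Meox1*, a homeobox transcription factor of the mesoderm, was the other higher gene called in all the alternatives that tested it, 28 of 29. Its male WT libraries held 1.67, 3.29, 3.03 and 3.08 TPM and its male KO libraries 5.4, 5.8, 5.36 and 5.53. In females WT stood at 3.22, 1.81, 1.93 and 2.19 TPM and KO at 4.71, 3.63, 4.11 and 4.66. No KO library overlapped a WT library of either sex, and the difference was 0.86 ± 0.12 (SE, adjusted p = 0.0059 in limma), 0.92 in males and 0.80 in females.

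The other leading higher genes are given by what each encodes. *Adm* encodes adrenomedullin, a vasodilator peptide. It stood at 1.52, 1.8, 1.86 and 1.98 TPM in male WT and 2.98, 4.29, 2.99 and 4.65 in male KO, and at 0.767, 1.06, 1.51 and 1.39 in female WT and 2.22, 1.76, 2.32 and 2.12 in female KO. The groups did not overlap within either sex, and *Adm* rose by 0.76 ± 0.12 (SE, adjusted p = 0.0138). *Ddah2*, of the dimethylarginine dimethylaminohydrolase family, stood at 3.23 to 4.99 TPM over all male and 3.39 to 4.26 over all female WT libraries, and at 5.84 to 8.29 and 5.4 to 9.41 TPM in KO. It rose by 0.74 ± 0.11 (adjusted p = 0.0119), 0.71 in males and 0.77 in females. *Arrb2*, encoding beta-arrestin 2, which uncouples activated receptors from G proteins, rose by 0.65 (adjusted p = 0.0184), from 4.57 to 7.4 TPM in male WT to 8.91 to 11.7 in male KO and from 4.07 to 6.94 in female WT to 7.49 to 9.84 in female KO. *Pkig*, an inhibitor of protein kinase A, rose by 0.69 (adjusted p = 0.0184), with groups that overlapped in females only.

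*Mall*, a proteolipid of lipid rafts, averaged 1.74 ± 0.498 TPM in male WT and 3.18 ± 0.286 in male KO, and 1.52 ± 0.303 and 3.15 ± 0.83 in females (SD, n = 4), a rise of 0.79 (adjusted p = 0.0143 in limma) without overlap over the 16 libraries. *Nucb2*, the precursor of the peptide nesfatin-1, averaged 1.69 ± 0.342 TPM in male WT, 2.91 ± 0.428 in male KO, 1.45 ± 0.239 in female WT and 2.51 ± 0.471 in female KO. It rose by 0.63 (adjusted p = 0.0184) with nearly the same difference in males, 0.64, as in females, 0.62. *C1qtnf1*, which encodes a secreted protein related to C1q and TNF, rose by 0.53 (adjusted p = 0.0184), and its groups were apart over all 16 libraries. *Axl*, a receptor tyrosine kinase for the ligand GAS6, rose by 0.86 in males and by 0.40 in females (0.63 over both, limma adjusted p = 0.0184). Its unadjusted interaction p in limma was 0.032.

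*Tubb5*, a beta-tubulin, rose by 0.65 (adjusted p = 0.0199 in limma), from 18.5 ± 3.21 to 33.6 ± 5.37 TPM in males and from 17.4 ± 2.23 to 23.9 ± 3.08 in females (SD, n = 4). *Ajuba*, a LIM domain scaffold of cell junctions, rose by 0.54 and *Fam129b*, a Niban family protein, by 0.76 (adjusted p = 0.0199 for both). *Cd34*, a sialomucin of adipose progenitors and endothelium, rose by 0.76 (adjusted p = 0.0184), from 9.44 ± 2.53 to 19.2 ± 3.69 TPM in males and from 9.1 ± 0.812 to 13.2 ± 1.09 in females. For *C1qtnf1*, 20.8% of the 31-base words of its transcripts also occurred in another gene, *Gm11747*, so part of its level could be assigned to either.

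The strongest lower gene was *Pdpr*, the regulatory subunit of the phosphatase that activates pyruvate dehydrogenase. In males it stood at 7.88, 6.65, 9.32 and 10.1 TPM in WT and at 4.02, 4.78, 5.33 and 4.94 in KO. Female WT libraries held 10.1, 9.71, 11.5 and 10.6 TPM and female KO libraries 1.91, 4.24, 3.53 and 3.13. All 8 KO libraries lay below all 8 WT libraries. *Pdpr* fell by 1.18 ± 0.16 on the log2 scale (SE; 95% interval -1.52 to -0.84; limma adjusted p = 0.0059), with differences of -0.76 in males and -1.605 in females. The difference between the sexes had an unadjusted p of 0.00402 and did not pass after adjustment (adjusted p = 0.216).

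*Nr2c2*, the orphan nuclear receptor TR4, held 2.04, 2.4, 2.26 and 2.66 TPM in male WT and 0.878, 1.08, 1.35 and 1.11 in male KO. Its female WT values were 2.28, 2.25, 2.8 and 3.9 TPM, and its female KO values were 0.994, 0.928, 0.881 and 1.66. The genotypes were again apart in all 16 libraries, with a difference of -0.93 ± 0.13 (SE, adjusted p = 0.0059 in limma), -0.83 in males and -1.03 in females. Of the 14966 different 31-base words of its transcripts, 4639 also occurred in other genes, most often in *Mrps25*.

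Of the 14 leading lower genes, 3 were zinc finger genes of chromosome 2. *Zfp966* stood at 2.16, 2.08, 1.89 and 2.23 TPM in male WT, 1.2, 1.1, 1.16 and 1.07 in male KO, 2.58, 3.16, 2.67 and 1.67 in female WT and 1.04, 1.24, 1.28 and 1.18 in female KO. *Zfp971* held 5.25 to 6.48 TPM in male WT, 3.41 to 4.7 in male KO, 5.19 to 5.96 in female WT and 2.54 to 4.32 in female KO. *Zfp973* averaged 2.5 ± 0.605, 1.31 ± 0.276, 2.45 ± 0.423 and 1.22 ± 0.326 TPM in the same order (SD, n = 4). For each of these genes every KO library lay below every WT library. They fell by 0.74, 0.62 and 0.75 (adjusted p = 0.0059, 0.0119 and 0.0184 in limma). The transcripts of these genes are near copies of others: 93.9% of the 31-base words of *Zfp966*, 69.5% of those of *Zfp971* and 90.5% of those of *Zfp973* occurred in another gene too, most often *Zfp968*, *Gm14288* and *Zfp965*. Their levels as single genes are therefore uncertain. Over the 36 lower genes the median share of such words was 7.18%, with 14 genes over 20%, against 1.12% and 33 genes over 20% in the 300 higher genes. Of the 36 lower genes 24 were protein-coding, and of the 300 higher genes 294, beside 88.9% of all genes tested. The share of such words was not measured over all genes tested.

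Their promoters are near copies too, which is why they are shown. The sequences are from RefSeq (GRCm38.p6), run from 250 bases before to 50 after the start and are written 5′ to 3′ on the strand of the gene, at chr2:175931051-175931350 (minus strand) for *Zfp966*, chr2:178023034-178023333 (plus) for *Zfp971* and chr2:176670272-176670571 (plus) for *Zfp973*. Capitals mark CCAAT and its reverse complement ATTGG.
Zfp966: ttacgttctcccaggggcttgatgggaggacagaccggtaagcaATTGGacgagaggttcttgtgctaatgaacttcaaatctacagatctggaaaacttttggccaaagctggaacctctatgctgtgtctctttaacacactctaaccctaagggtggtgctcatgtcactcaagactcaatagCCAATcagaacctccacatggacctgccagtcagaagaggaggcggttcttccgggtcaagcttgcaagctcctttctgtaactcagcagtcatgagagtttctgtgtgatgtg
Zfp971: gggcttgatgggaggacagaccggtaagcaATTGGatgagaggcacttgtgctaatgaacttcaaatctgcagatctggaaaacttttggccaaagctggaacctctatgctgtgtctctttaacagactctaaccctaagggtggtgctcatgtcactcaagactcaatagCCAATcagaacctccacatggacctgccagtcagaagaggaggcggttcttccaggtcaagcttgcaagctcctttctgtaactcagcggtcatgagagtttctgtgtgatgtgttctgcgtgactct
Zfp973: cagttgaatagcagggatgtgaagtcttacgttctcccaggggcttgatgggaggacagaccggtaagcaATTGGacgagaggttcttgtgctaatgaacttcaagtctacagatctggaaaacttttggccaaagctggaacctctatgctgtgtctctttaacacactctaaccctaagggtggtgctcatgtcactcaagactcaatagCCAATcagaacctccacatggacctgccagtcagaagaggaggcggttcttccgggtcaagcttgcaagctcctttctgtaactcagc

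Laid over each other without gaps, the promoters of *Zfp966* and *Zfp973* were identical at 273 of 274 bases (99.6%), those of *Zfp966* and *Zfp971* at 279 of 286 (97.6%) and those of *Zfp971* and *Zfp973* at 253 of 260 (97.3%). A promoter whose start lay within 100 bases of that of the most abundant transcript was found for 6352 of the genes tested, 153 of the 300 higher and 14 of the 36 lower genes. CCAAT, on either strand, occurred in 39.8% of all these promoters, in 31.4% of those of the higher and in 35.7% of those of the lower genes. GGGCGG occurred in 67.3%, 69.3% and 71.4%, and TATAAA in 6.85%, 5.88% and 0%, in the same order.

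*Pfkfb2*, which makes and removes fructose 2,6-bisphosphate, the activator of glycolysis, stood at 3.18, 3.67, 3.55 and 3.54 TPM in male WT and 2.14, 2.52, 2.3 and 2.24 in male KO. In females it stood at 3.63, 2.96, 4.43 and 3.65 TPM in WT and at 2.06, 2.73, 1.83 and 1.61 in KO. KO lay below WT in all libraries, and *Pfkfb2* fell by 0.61 ± 0.10 (SE, adjusted p = 0.0138 in limma). *Insr*, the insulin receptor, fell by 0.38 (adjusted p = 0.0243), from 9.74 to 10.8 TPM in male WT to 7.8 to 8.7 in male KO and from 9.83 to 12.4 in female WT to 7.32 to 9.85 in female KO, where the ranges overlapped narrowly. *Vldlr*, a receptor for triglyceride-rich lipoproteins, fell by 0.38 (adjusted p = 0.0318) and *Grk3*, a kinase of G protein-coupled receptors, by 0.55 (adjusted p = 0.0184), both without overlap within a sex.

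*Hipk2*, a nuclear serine/threonine kinase, had the largest mean change of the 28, a fall of 1.36, and the widest spread (SE 0.27, adjusted p = 0.0288 in limma). Its male WT libraries held 4.59, 2.93, 6.04 and 7.77 TPM and its male KO libraries 2.04, 3.32, 3.39 and 3.39, which overlapped. In females WT stood at 5.31, 5.75, 6.48 and 15.8 TPM and KO at 1.12, 1.73, 1.47 and 1.52, with no overlap. The highest value was that of the fourth female WT library, and without it *Hipk2* fell by 1.15 (adjusted p = 0.0269). *Ptprd*, a receptor tyrosine phosphatase, likewise overlapped in males, fell by 0.22 there and by 0.79 in females, and had an unadjusted interaction p of 0.00224.

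*Zfp445*, a zinc finger protein that binds imprinted loci, fell by 0.45 (adjusted p = 0.0184 in limma), from 12 ± 1.36 to 8.98 ± 0.794 TPM in males and from 13.7 ± 1.36 to 9.56 ± 1.09 in females (SD, n = 4). *Dennd4c*, an exchange factor for RAB10, fell by 0.45 (adjusted p = 0.0271), and *Ppp1r9a*, the actin-binding neurabin, by 0.40 (adjusted p = 0.0297). Both were apart over all 16 libraries. As a group the 36 lower genes had a median length of 5563.5 bases for the most abundant transcript, against 2373.5 in the higher and 2259 in all genes tested. Their median GC content was 45%, against 54.3% in the higher genes and 50.4% in all. After a smooth trend on GC content and length was removed from each library, 108 genes were called, 75 of them higher, and the part of base composition or length in single calls was not tested.

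**Figure D3:**
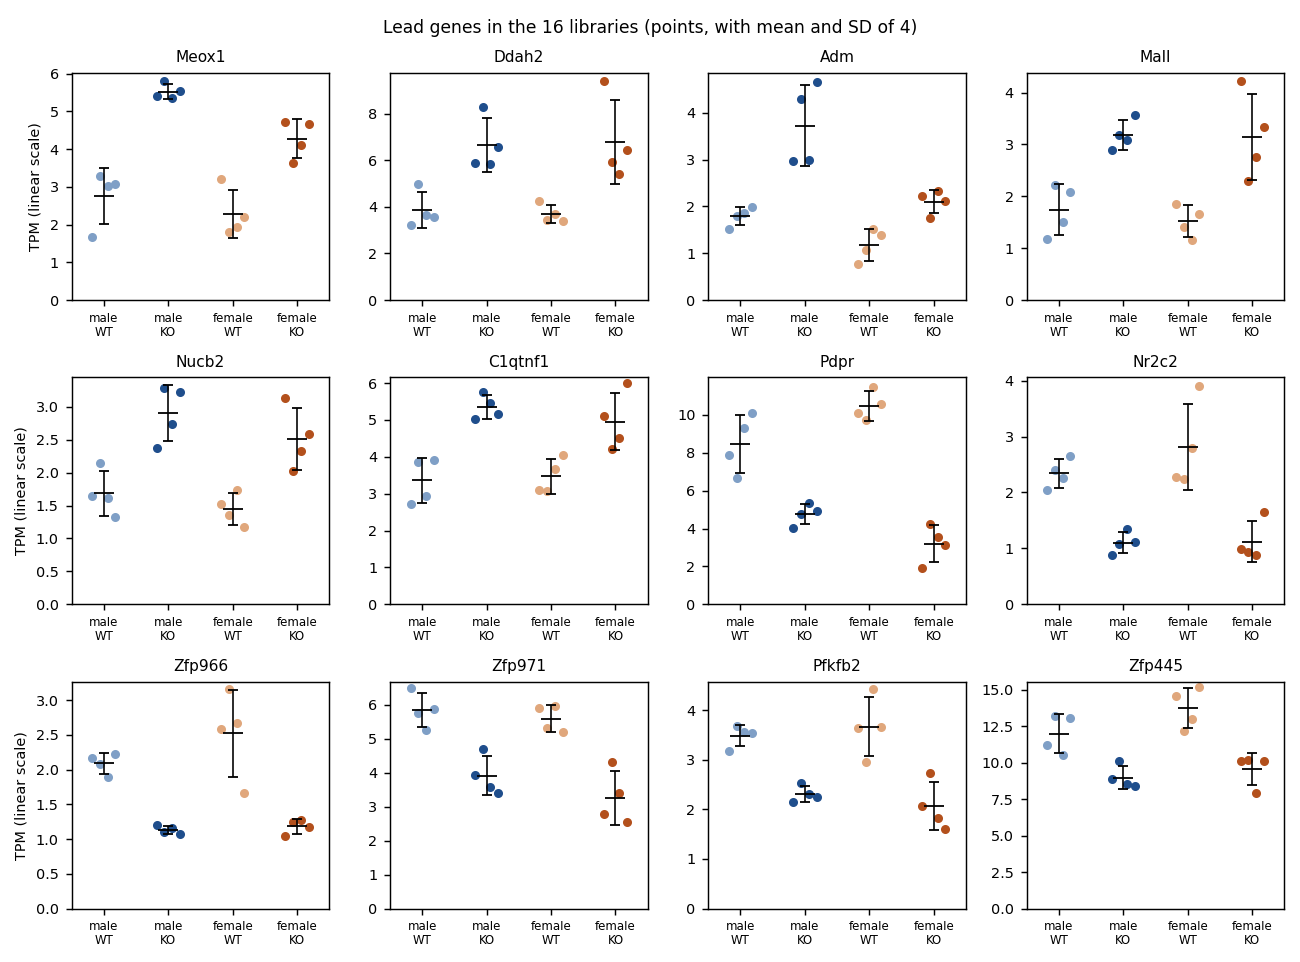
TPM (linear vertical axes from 0) of 6 leading higher genes (*Meox1* to *C1qtnf1*) and 6 leading lower genes (*Pdpr* to *Zfp445*) in the 4 groups; points are libraries, and lines with bars are means and SD of 4. KO and WT do not overlap within a sex in any of the 12 panels.

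Matrix genes were described next, from lists covering the families of the extracellular matrix. These lists and those below were chosen with earlier results of these data known, so their shares called are descriptions. Of 15 tested genes of the fibrillar, FACIT and type VI collagens, all 15 had a positive mean difference, 11 of them in both sexes. The 3 chains of collagen VI were called (20%, beside 2.75% of all genes tested). *Col6a1* rose by 0.67 (adjusted p = 0.0299 in limma), from 13.8 ± 3.39 to 26.7 ± 2.96 TPM in males and from 17.6 ± 3.45 to 23 ± 3.18 in females (SD, n = 4). *Col6a2* rose by 0.69 and *Col6a3* by 0.63. The median of the list was 0.59, 0.92 in males and 0.15 in females, against 0.13 over all genes tested. *Col1a1* and *Col1a2*, the chains of collagen I, were not called: their differences were 0.72 (adjusted p = 0.0875) and 0.64 (adjusted p = 0.0531), and in males alone 1.30 and 1.01 against 0.15 and 0.27 in females.

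The basement membrane list had a median of 0.42, with 0.47 in males and 0.50 in females. All 13 tested genes had a positive mean difference, 12 of them in both sexes. Of the 13, 4 were called (30.8%, beside 2.75% of all genes tested). *Col4a1* and *Col4a2*, the main chains of collagen IV, rose by 0.68 and 0.60 (adjusted p = 0.0299 for both in limma). *Col4a1* went from 88 ± 21.6 to 143 ± 11 TPM in males and from 96.4 ± 19.7 to 152 ± 39.3 in females (SD, n = 4). *Lamb2*, the laminin beta 2 chain, rose by 0.56 without overlap in either sex (adjusted p = 0.0471), and *Sparc*, a collagen-binding glycoprotein, by 0.42 (adjusted p = 0.0384). After rescaling 2 of the 4, *Col4a1* and *Col4a2*, were still called, and without the fourth female WT library also 2 members of the list.

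Among 17 tested genes of microfibrils and elastic fibres, 16 had a positive mean difference, 11 of them in both sexes. Of the 17, 3 were called (17.6%, beside 2.75% of all genes tested). These were *Mfap5*, a microfibril glycoprotein, at 0.99, *Emilin1*, an elastin-associated glycoprotein, at 0.66, and *Efemp2*, the fibulin 4 needed for elastic fibre assembly, at 0.47 (adjusted p = 0.0344, 0.0318 and 0.0297 in limma). *Mfap5* rose by 1.61 in males and by 0.36 in females, with an unadjusted interaction p of 0.00171. Of 29 matrix glycoproteins, proteoglycans and remodelling genes, 26 had a positive mean difference, 20 of them in both sexes, and 3 were called (10.3%). *Fn1*, fibronectin, rose by 0.87 (adjusted p = 0.0318), *Timp2*, an inhibitor of metalloproteinases, by 0.66 (adjusted p = 0.0299) and *Bgn*, the proteoglycan biglycan, by 0.63 (adjusted p = 0.0271). *Fn1* stood at 2.2, 4.62, 3.43 and 4.76 TPM in male WT and 7.23, 11, 10.9 and 10.3 in male KO, and at 4.11, 5.16, 6.59 and 5.84 in female WT and 8.24, 6.12, 5.82 and 9.91 in female KO. The male groups were apart and the female groups overlapped, as they did for *Timp2*.

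None of 21 tested genes of TGF-beta family signalling was called (median 0.19). The nearest were *Bmp6*, a bone morphogenetic protein, at 0.68 (adjusted p = 0.054 in limma) and *Tgfb3* at 0.60 (adjusted p = 0.0662).

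Markers of the other cell types of the tissue were counted in the same way, and in bulk tissue more cells of a type and more RNA per cell, or fewer and less, cannot be told apart. Fibroblast and adipose progenitor markers held the most calls of any list, 8 of 18 tested (44.4%, beside 2.75% of all genes tested). All 18 mean differences were positive, 17 of them in both sexes, with a median of 0.52. *Cd34* led them, followed by *Thy1*, a surface glycoprotein of mesenchymal cells, at 0.72 (adjusted p = 0.0318 in limma), *Pdgfrb*, a receptor for platelet-derived growth factor, at 0.50 (adjusted p = 0.0338) and *Clec3b*, tetranectin, at 0.69 (adjusted p = 0.0353). The summed TPM of the 19 listed markers was 402 to 696 in male WT, 669 to 774 in male KO, 558 to 673 in female WT and 587 to 1010 in female KO. After rescaling 4 of the 8 were still called.

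All 17 endothelial markers were positive (median 0.53, 0.40 in males and 0.75 in females), 16 of them in both sexes. Of the 17, 2 were called (11.8%, beside 2.75% of all genes tested). *Robo4*, a guidance receptor of the endothelium, rose by 0.996 (adjusted p = 0.0297 in limma), from 5.67 ± 2.45 to 10.5 ± 1.46 TPM in males and from 5.2 ± 1.79 to 11.4 ± 3.95 in females (SD, n = 4), without overlap in either sex. *Cdh5*, VE-cadherin of endothelial junctions, rose by 0.65 (adjusted p = 0.0384). The summed TPM of the 17 markers was 1040 to 1470 in male WT and 1350 to 1600 in male KO, and 1060 to 1210 in female WT and 1180 to 1960 in female KO. Markers of smooth muscle cells and pericytes were positive in 10 of 10 (median 0.48), 8 of them in both sexes, and 2 were called (20%). These were *Rgs5*, a pericyte regulator of G protein signalling, at 0.40 (adjusted p = 0.0406 in limma) and *Acta2*, smooth muscle actin, at 0.96 (adjusted p = 0.0487). The sum of the 10 markers was 154 to 228 TPM in male WT, 224 to 273 in male KO, 161 to 187 in female WT and 204 to 311 in female KO.

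Macrophage markers had a positive mean difference in 19 of 19 tested genes, with a median of 0.45 that came from 0.90 in males and 0.09 in females. Of the 19, 12 were higher in both sexes, and 3 were called (15.8%, beside 2.75% of all genes tested). The 3 called were *Clec10a*, a galactose-type lectin, at 0.68, *Cd68*, a lysosomal glycoprotein of macrophages, at 0.77, and *C1qb*, a chain of complement C1q, at 0.73 (adjusted p = 0.0389, 0.0427 and 0.0497 in limma). *Cd68* rose from 3.49 ± 1.24 to 8.52 ± 2.61 TPM in males and from 3.79 ± 0.731 to 4.96 ± 0.707 in females (SD, n = 4), with groups that overlapped in females. None of the 3 was called after rescaling or without the fourth female WT library. The summed TPM of the 27 listed markers was 63.2 to 122 in male WT and 162 to 244 in male KO, and 82.2 to 164 in female WT and 109 to 151 in female KO. *Ccl6*, a macrophage chemokine, stood at 1.57 in males and -0.27 in females and was not called over both (0.65, adjusted p = 0.214).

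Skeletal muscle markers had the highest median of any list, 0.79, and 0 of 18 called in limma. Their summed TPM ran from 82.6 to 6000 between libraries of the same tissue, and the leading members *Myh2* and *Myh7* stood at 1.10 and 1.01 (adjusted p = 0.554 and 0.574). Neither of the tested neutrophil markers *S100a8* and *S100a9* (-0.30 and -0.43) and neither of the tested lymphocyte markers *Ighm* and *Igkc* (0.31 and 0.11) was called, and 0 of 5 red blood cell, 0 of 4 Schwann cell and neuron and 0 of 13 white adipocyte markers were. The part of changed cell content in the gene differences above was not tested.

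Among 24 brown adipocyte and thermogenic genes, whose median was 0.06, 1 was called (4.17%, beside 2.75% of all genes tested). The single call was *Ppara*, the fatty acid-sensing nuclear receptor. It stood at 41.7, 38.8, 51.8 and 64.4 TPM in male WT and 29.3, 35.4, 38.2 and 46.3 in male KO, which overlapped. In females WT held 67.5, 37.4, 63.2 and 52.3 TPM and KO 23.8, 34.8, 24.9 and 28.4, which did not. *Ppara* fell by 0.67 (adjusted p = 0.0391 in limma; 0.0595 without the fourth female WT library). *Sox5*, an SRY-box transcription factor, fell by 0.58 (adjusted p = 0.0467; 0.0658 without that library), by 0.26 in males and by 0.91 in females. *Gsk3b*, a kinase of glycogen and Wnt signalling, at -0.45 (adjusted p = 0.101) and *Esr1*, the oestrogen receptor alpha, at -0.33 (adjusted p = 0.262) were not called.

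Lists of energy metabolism held 0 or 1 call each, and their medians often had opposite signs in the sexes. The shares called were 4.35% for pyruvate and lactate metabolism, 5% for glycolysis and 3.57% for lipogenesis, beside 2.75% of all genes tested. Counts this small do not set these lists apart from all genes. Of 20 genes of the TCA cycle 0 were called (median -0.05; 0.15 in males and -0.25 in females). Of 23 genes of pyruvate and lactate metabolism 1 was called, *Pdpr* (median -0.03; 0.28 and -0.30), and of 20 genes of glycolysis and glucose uptake 1, *Pfkfb2* (median 0.11; 0.46 and -0.19). Lipogenesis and cholesterol synthesis had a median of -0.06 (0.33 and -0.40), with 1 of 28 called, *Fads2*, the delta-6 desaturase, at 0.44 (adjusted p = 0.044 in limma). No gene was called among 26 of fatty acid oxidation, 25 of triglyceride synthesis, lipolysis and lipid droplets, 9 of creatine and calcium cycling and 15 protein-coding and ribosomal genes of the mitochondrial genome. Of the latter 15, 3 had a positive mean difference, and after rescaling 0 did. In both sexes 6 of the 15 were lower. Nuclear genes of the respiratory chain had a positive mean difference in 69 of 78, 0 called, at a median of 0.13, and in 34 of 78 after rescaling. Only 19 of the 78 were higher in both sexes, and the median was -0.01 in males and 0.28 in females.

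**Figure D4:**
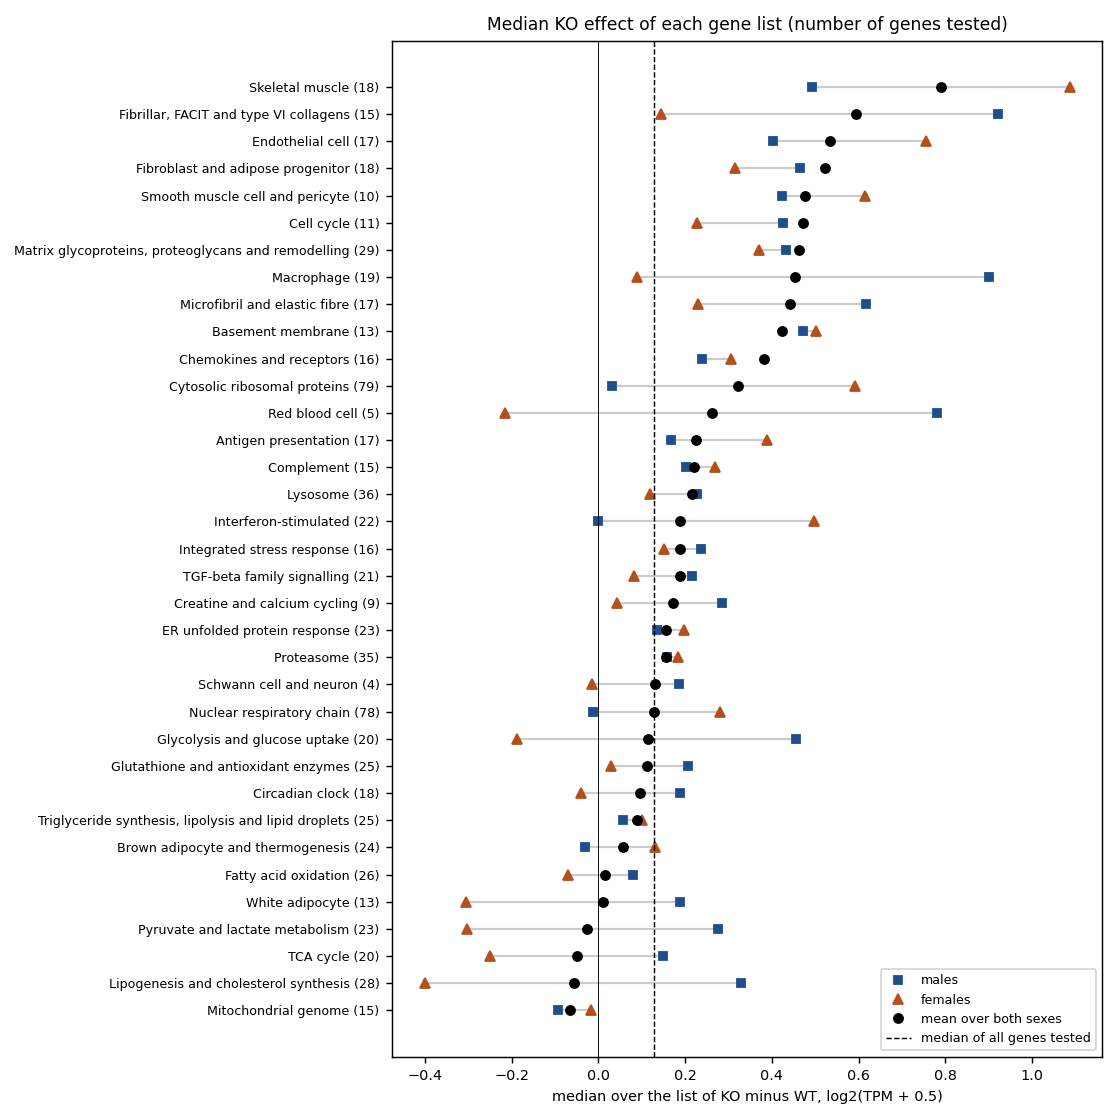
Median KO minus WT difference of each gene list on the log2(TPM + 0.5) scale, in males (squares), in females (triangles) and over both sexes (circles), with the number of genes tested in parentheses and the median of all genes, 0.13, as a dashed line. Basement membrane genes lie at 0.47 and 0.50 in the sexes, while macrophage genes (0.90 and 0.09) and lipogenic genes (0.33 and -0.40) lie far apart.

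Protein synthesis and turnover showed small positive medians without calls. All 79 cytosolic ribosomal protein genes had a positive mean difference (median 0.32), at 0.03 in males and 0.59 in females. Of these, 57 were higher in both sexes, and 0 were called in limma. The nearest were *Rpl4* at 0.34 (adjusted p = 0.0868) and *Rps2* at 0.30 (adjusted p = 0.0924). Proteasome genes had a positive mean difference in 34 of 35 (median 0.16), were higher in both sexes in 25, and were positive in 21 of 35 after rescaling. In the integrated stress response list 1 of 16 genes was called (6.25%, beside 2.75% of all genes tested). It was *Ddit4*, an inhibitor of mTORC1, at 0.93 (adjusted p = 0.0353 in limma). It stood at 8.04, 7.91, 16 and 6.68 TPM in male WT and 19.4, 15.7, 18.4 and 23.6 in male KO, and at 7.55, 4.7, 6.37 and 8.38 in female WT and 17.8, 8.17, 7.75 and 18.8 in female KO. The highest WT and the lowest KO library overlapped in each sex. In the unfolded protein response list 1 of 23 was called (4.35%), *Xbp1*, its transcription factor, at 0.44 (adjusted p = 0.0318 in limma). *Xbp1* rose by 0.18 in males and by 0.70 in females, and it was not called after rescaling (adjusted p = 0.13).

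Immune and defence lists were set beside the 2.75% called of all genes tested. *Cfp*, properdin, at 0.49 (adjusted p = 0.0409 in limma) and *C1qb* were the 2 called of 15 complement genes (13.3%). There were 0 calls among 36 lysosomal, 17 antigen presentation, 22 interferon-stimulated and 16 chemokine genes. Each of these lists is too small for 0 calls to stand apart from that share. In the same order, 34, 16, 18 and 15 had a positive mean difference and 26, 12, 11 and 10 were higher in both sexes. After rescaling 23, 13, 12 and 15 had a positive mean difference. *H2-Ab1*, a class II chain, stood close to the threshold at 0.70 (adjusted p = 0.0531). *Gsta3*, a glutathione transferase, was the 1 of 25 antioxidant genes called (4%). It had the largest change of any list member called, 1.48 (adjusted p = 0.0295 in limma), 2.17 in males and 0.78 in females. It went from 2.48 to 11.8 TPM in males and from 2.22 to 4.25 in females, as group means.

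Cell cycle genes were positive in 11 of 11 tested and in each sex, with a median of 0.47. Of the 11, 2 were called (18.2%, beside 2.75% of all genes tested). *Stmn1*, a tubulin-binding protein of dividing cells, rose by 0.85 (adjusted p = 0.0384 in limma), 0.84 in males and 0.87 in females. *Mcm6*, of the helicase that replicates DNA, rose by 0.59 (adjusted p = 0.0299), 0.60 in males and 0.58 in females, and both were still called after rescaling. Of 18 circadian clock genes 0 were called; *Clock* stood at -0.22 (adjusted p = 0.125) and passed the threshold after rescaling (adjusted p = 0.0327).

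With the library prefix as a covariate, *Pdpr* was the only member of these 39 lists that was called. Without the first female KO library the calls among the matrix and cell marker lists above came down to 1, in the fibroblast list.

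**Figure D5:**
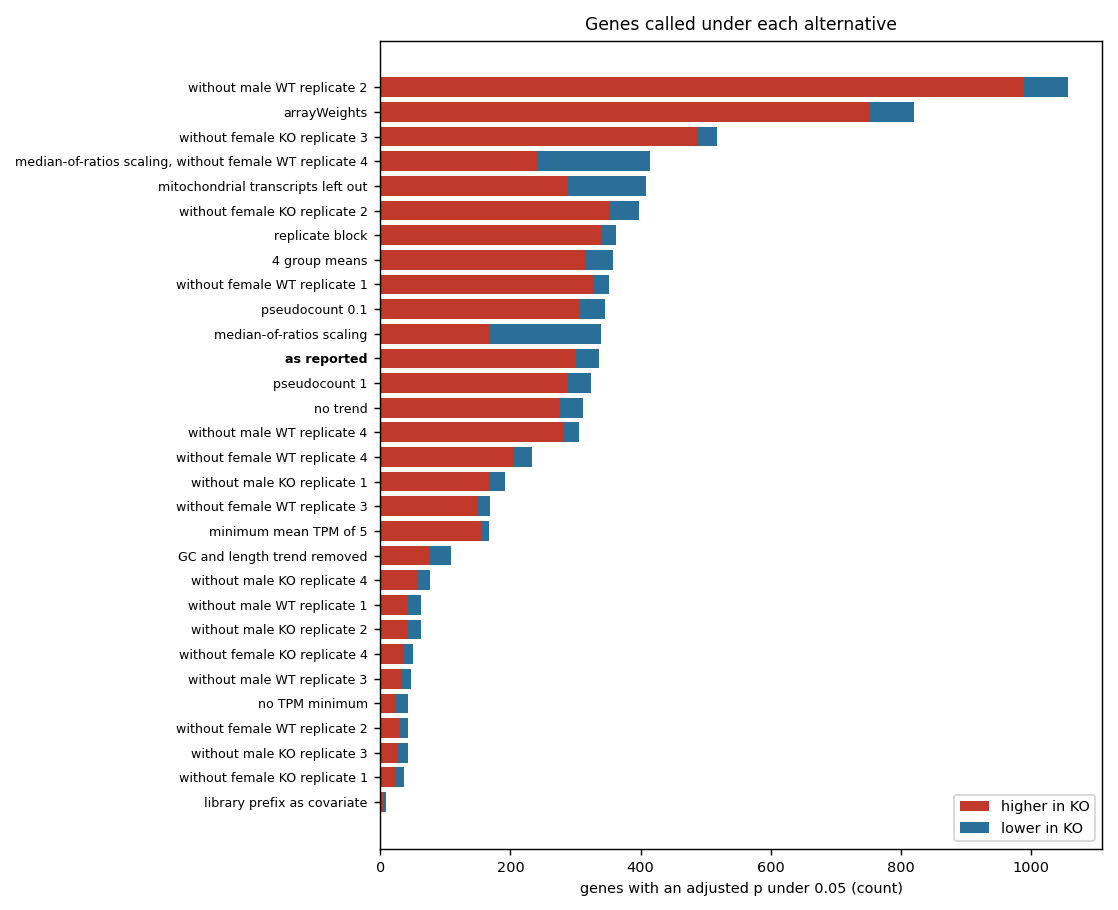
Number of genes called (horizontal axis, count from 0) in the analysis as reported and under 29 alternatives, split into higher in KO (red) and lower in KO (blue). The total runs from 9 with the library prefix as covariate to 1057 without the second male WT library, and is 339 with 168 higher and 171 lower after median-of-ratios scaling.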

How the data were processed

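Stranded mRNA libraries (TruSeq, NovaSeq 6000, single-end) of BAT from 16 mice were quantified by the authors with kallisto 0.46.2 against GRCm39, per the labels, and the annotation release is not given in the sources used here. The authors deposited TPM values per transcript, divided by transcript length and scaled to 1000000 per library, so read depth is unknown. DESeq2, with which the authors made their own comparisons, requires read counts and was not run here.

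Transcript identifiers were matched without version to GENCODE mouse release 21, of GRCm38 (135051 matched, 2387 did not), and TPM were summed per gene. Since the builds differ, no coordinates are given except those of the RefSeq promoters. Values were transformed to log2(TPM + 0.5), which understates changes of low genes. Genes with a mean of at least 1 TPM were fitted with genotype and sex in limma 3.58.1 (R 4.3.3; lmFit, eBayes with a trend), with Benjamini-Hochberg adjustment over all genes tested and a threshold of 0.05. The interaction of genotype and sex was fitted on the 4 group means. *Gdf15* was compared by an exact permutation within each sex (4900 arrangements, smallest possible p 0.000408). Self-tests on simulated data preceded the fits. Groups were taken from the labels, which number the replicates, and the study counts 4 mice per group. Whether the libraries were prepared separately is not stated, and p-values measure the spread between these samples.

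Named genes are *Gdf15*, *Ucp1*, tested genes within 500 kb of *Ucp1*, the 14 higher and 14 lower called genes with the smallest p (predicted genes and pseudogenes aside), up to 5 called members of each of 39 lists or otherwise the 2 with the smallest p, and genes the study names from its sequencing. A few genes that this rule names are not reported here. The members and lists were chosen with earlier results of these data known. Sharing between genes was measured as 31-base words of the GENCODE transcripts. The 29 alternatives were other pseudocounts, TPM minimums and scalings, no trend, arrayWeights, group means, a replicate block, the library prefix, each library left out and, chosen after seeing the data, removal of a GC and length trend (lowess, span 0.2) and rescaling without the fourth female WT library.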

Additional observations from a re-analysis of the deposited data

Results flagged for a closer look

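In 14 of 208 groups of 4 libraries, over 52 genes, 1 library lay far from the other 3, and chance alone does this in about 1 of 20 groups. In the fourth female KO library, *Elmod2* stood at 13.7 TPM against 7.18 to 7.44 in the other female KO libraries, *Nr2c2* at 1.66 against 0.881 to 0.994 and *Tbc1d9* at 4.38 against 2.74 to 2.93. For *Elmod2* this library lay away from WT, and for *Nr2c2* toward WT. In the fourth female WT library, *Hipk2* stood at 15.8 TPM against 5.31 to 6.48 and *Ptger1* at 7.1 against 1.38 to 2.33. In the first female WT library, *Rnf150* stood at 2.68 TPM against 3.71 to 3.88, and *Mir1668* at 17.1 against 0. In the second, *Insr* stood at 9.83 against 12 to 12.4. In the third female KO library, *Zfp445* stood at 7.93 TPM against 10.1 to 10.2 and *Gdf15* at 0.0794 against 0.

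Among the male libraries, *Meox1* stood at 1.67 TPM in the first WT library against 3.03 to 3.29, and *Vldlr* at 30.3 in the fourth WT library against 23.7 to 24.6, both on the side away from KO. *Hipk2* stood at 2.04 in the first KO library against 3.32 to 3.39, and *Insr* at 8.7 in the fourth against 7.8 to 7.85.

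Transcripts that have no gene in the annotation used here, and so were left out of the test across genes, also carried signal. ENSMUST99999999995 reached 78.8 TPM in KO, against 0 to 0.0427 in WT, and ENSMUST99999999996 reached 41.7, against 0 to 3.29. Both identifiers lie outside the Ensembl series, and what they stand for is not given in the sources used here. ENSMUST00000240377 stood at 165083 TPM in the fourth female WT library, against 266 to 527 elsewhere.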

How the results depend on the processing

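The number of genes called depended on the processing. Against 336 genes (300 higher, 36 lower), there were 43 without a TPM minimum (24 and 19), 167 at a minimum mean of 5 TPM (155 and 12), 820 with arrayWeights (751 and 69; 818 with one sign in both sexes), 9 with the library prefix (4 and 5) and 108 after removal of the GC and length trend (75 and 33). Median-of-ratios scaling called 168 higher and 171 lower genes, and, without the fourth female WT library as well, 240 higher and 174 lower. Leaving out mitochondrial transcripts gave 289 higher and 119 lower genes. Without a replicate, the total ran from 36 to 1057, the higher genes from 24 to 990, the lower genes from 12 to 67 and those with one sign in both sexes from 36 to 1057. The total was 63, 1057 and 47 without male WT libraries 1, 2 and 3, and 191, 63, 42 and 77 without each male KO library in order. It was 42 without female WT library 2 and 168 without female WT library 3, and 36, 518 and 50 without female KO libraries 1, 3 and 4. The sex difference, with 0 genes called, had 1 with no trend, 1 with rescaling and without the fourth female WT library, and 0 to 3 with a library left out. The cause of these shifts was not tested.

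Same-numbered mice did not deviate together in every pair (correlations of -0.117 to 0.349, with 3 of 8 highest for their own number), so the replicate block is given here only: it called 362 genes, 240 of them among the 336, and 22 lower genes. No called result changed sign under any alternative, and *Gdf15* kept its call in all. Over single named genes and lists, 512 of the recomputed values lost their call and 51 gained it. Depth is unknown, so the limit it sets for low genes cannot be given.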

Other observations

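Further groups of called genes were picked out after their values were seen and carry no test as groups. Several genes of the arterial and capillary endothelium outside the marker list were called higher. *Hey1*, a Notch target, rose by 0.82 on the log2 scale (adjusted p = 0.025 in limma), and *Gja5*, connexin 40, by 0.60 (adjusted p = 0.0203) without overlap in either sex. *Sox7* and *Sox17*, transcription factors of the endothelium, rose by 0.79 and 0.61, *Mmrn2* by 0.60, *Cd93* by 0.50 and *Aqp1*, the water channel aquaporin 1, by 0.73. *Meox2*, the paralog of *Meox1*, rose by 0.52 (adjusted p = 0.0397).

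The actin cytoskeleton and its adhesions formed another such group. *Flna*, filamin A, rose by 0.91, 0.95 in males and 0.88 in females (adjusted p = 0.0288 in limma). *Tagln2*, transgelin 2, rose by 0.93 (adjusted p = 0.0231), *Actn1* by 0.75, *Pxn*, paxillin, by 0.65 and *Myh9* by 0.57. *Gas6*, the ligand of AXL named above, rose by 0.53 beside *Axl*. *Pros1*, which encodes a ligand of the related receptors MERTK and TYRO3, rose by 0.46 and was not called after rescaling (adjusted p = 0.0656).

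*Meg3* and *Rian*, noncoding RNAs of the same imprinted domain on chromosome 12, rose by 0.75 and 0.79 (adjusted p = 0.0243 for both in limma). *Ucp2*, a mitochondrial carrier, rose by 0.90, 1.38 in males and 0.41 in females. Among the lower genes outside the leading 14, *Sox6* fell by 0.47 and *Mrs2*, a mitochondrial magnesium channel, by 0.50 (adjusted p = 0.0389 and 0.0353). *Zfp318* fell by 0.52 and *Tfdp2*, a partner of E2F, by 0.32.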
